A study of Homo sapiens with 6 samples.

Results

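The cluster of miR-374a with miR-545 and the cluster of miR-374b with miR-421 are small groups of microRNA (miRNA) genes inside the non-coding gene FTX on the human X chromosome. The 8 mature products taken as members were hsa-miR-374a-5p, hsa-miR-374a-3p, hsa-miR-374b-5p, hsa-miR-374b-3p, hsa-miR-374c-5p, hsa-miR-421, hsa-miR-545-3p and hsa-miR-545-5p, of 2549 human miRNAs measured. The group was chosen by the substate difference of the same array signals described here, with that difference already known, and was then widened to further mature miRNAs of both clusters, without hsa-miR-374c-3p. The substate difference of the members is therefore given as a description, with no test, and supports nothing by itself.

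The samples were exosomes, small membrane vesicles that cells release into the medium, from H9 cells, an established human embryonic stem cell line. The cells grew on Matrigel, a protein matrix, in TeSR-E8 medium, where the culture held a vimentin-negative state called substate 1 and a vimentin-positive state called substate 2. Exosomes were precipitated with the polymer reagent ExoQuick-TC, which does not separate vesicles from other particles that carry RNA. Each of 3 experiments gave 1 array per substate, so that 6 one-colour Agilent arrays were compared. Experiment 1 used 72.4 ng of RNA per array, experiment 2 used 100.0 ng and experiment 3 used 51.4 ng. Substate 1 was at passage 41, 46 and 50 in experiments 1 to 3, and substate 2 at passage 52, 61 and 65. Passage number was thus higher in substate 2 in each experiment, and the parts of passage and substate cannot be told apart. All samples came from 1 cell line, and nothing in the labels says that the experiments were separate thaws, so that their spread may be partly technical.

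A miRNA gene is transcribed as a hairpin, and either arm of the hairpin (named 5p or 3p) can be loaded into an Argonaute protein. Bases 2 to 8 of the loaded strand, the seed, choose the messenger RNAs that are silenced. FTX belongs to the X-inactivation centre, the region of the X chromosome that controls the silencing of 1 X in female cells, and miRNAs on its strand can be cut from the same primary transcript as the host RNA.

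Of the 8 members, 7 had a mature sequence in the RefSeq annotation of GRCh38.p14. MIR421 lay at chrX:74218377-74218461 and MIR374B at chrX:74218547-74218618, both on the minus strand like FTX, with 85 bases between them. MIR545 (chrX:74287104-74287209) and MIR374A (chrX:74287286-74287357) lay on the same strand with 76 bases between them, and 68485 bases separated MIR374B from MIR545. All lay inside FTX (chrX:74028136-74293574). MIR374C (chrX:74218549-74218618) was annotated on the plus strand and overlapped MIR374B over all of its 70 bases. The sequences on which the values turn are given 5′ to 3′, with the seed in capitals.
hsa-miR-374b-5p: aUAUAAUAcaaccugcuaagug
hsa-miR-374c-5p: aUAAUACAaccugcuaagugcu
hsa-miR-421: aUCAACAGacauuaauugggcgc
hsa-miR-545-3p: uCAGCAAAcauuuauugugugc
hsa-miR-655-3p: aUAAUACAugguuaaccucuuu

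The first pair is shown because the sequences are nearly the same. They shared an unbroken run of 20 bases, which starts at base 3 of hsa-miR-374b-5p and at base 1 of hsa-miR-374c-5p. The shift of the 5′ end gave them different seeds, and no members with a sequence shared a seed. The longest run between any other members with a sequence was 7 bases, between hsa-miR-374a-3p and hsa-miR-374b-3p. hsa-miR-374a-5p had no sequence in the reference and was not compared. Outside the group, 1 human miRNA of the reference table had the seed of a member: hsa-miR-655-3p, from chromosome 14, had that of hsa-miR-374c-5p, and it was detected on 0 of the 6 arrays.

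The array detected 3 of the 8 members on all 6 arrays: hsa-miR-374a-5p, hsa-miR-374b-5p and hsa-miR-421. A miRNA counted as detected where the scanner software marked it so, which for all 48 combinations of member and array was the same as at least 1 probe with a signal above 3 times its error. hsa-miR-374c-5p was detected on 3 arrays (both of experiment 1 and substate 2 of experiment 2). hsa-miR-545-3p was detected on 1 array, that of substate 2 in experiment 2. hsa-miR-374a-3p, hsa-miR-374b-3p and hsa-miR-545-5p were detected on none, and their probes reached at most 1.62, 1.53 and 1.23 times their error. Both well measured miR-374 products were thus 5p arms whose 3p partners were not detected. hsa-miR-374c-3p, the other arm of MIR374C and not a member, was not detected on any array either.

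The total signal of hsa-miR-374a-5p, in scanner units summed over its spots and not yet scaled between arrays, was 9.72 ± 0.84 (the software's error) in substate 1 and 12.9 ± 0.97 in substate 2 of experiment 1. It was 7.22 ± 0.66 and 20.9 ± 1.5 in experiment 2, and 5.20 ± 0.60 and 6.39 ± 0.61 in experiment 3. Substate 2 had the higher signal in each experiment, and by far the widest gap was in experiment 2.

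The total signal of hsa-miR-374b-5p was 17.2 ± 1.3 in both substates of experiment 1. It was 6.81 ± 0.64 in substate 1 and 26.7 ± 1.9 in substate 2 of experiment 2, and 7.32 ± 0.70 and 8.76 ± 0.75 in experiment 3. Before scaling, the substates were thus level in experiment 1, closer than the sum of their errors in experiment 3, and far apart in experiment 2. The level signals of experiment 1 rest on a spot-size setting described below, and at the same spot size they were 13.0 and 17.2.

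The total signal of hsa-miR-421, the member on the same short stretch of FTX as MIR374B, was 8.89 ± 0.90 in substate 1 and 12.7 ± 1.1 in substate 2 of experiment 1. It was 5.11 ± 0.59 and 23.6 ± 2.1 in experiment 2, and 2.61 ± 0.42 and 5.98 ± 0.66 in experiment 3. This was the member with a gap wider than the errors in all 3 experiments.

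Part of these raw values came from a setting of the scanner software. The total signal of a probe was the sum of its spots times a constant, and that constant was 0.0186 on the array of substate 1 in experiment 1 and 0.0141 on the other 5 arrays. The file headers gave the reason: the effective size of a spot was measured as 0.791 of its nominal size on the first array, and the default of 0.6 was used on the rest. Brought to the same spot size, hsa-miR-374b-5p had a total signal of 13.0 in substate 1 against 17.2 in substate 2 of experiment 1, a ratio of 1.32. The ratio was 1.75 for hsa-miR-374a-5p and 1.89 for hsa-miR-421. A constant of this kind drops out once each array is divided by a percentile of its own signals.

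Signals were divided by the 99th percentile of the total signals of all human miRNAs on the array, and put on the log2 scale with a common floor at 0.431% of that percentile (-7.86). The 99th percentile was lower in substate 2 in each experiment: 476 against 269 in experiment 1, 355 against 282 in experiment 2, and 180 against 125 in experiment 3. Scaling therefore raised substate 2 relative to substate 1 by 0.82, 0.33 and 0.52 on the log2 scale, of which 0.43 remained in experiment 1 at the same spot size. The number of detected miRNAs was 594 and 527 in experiment 1, 465 and 470 in experiment 2, and 332 and 310 in experiment 3, in the order substate 1 and substate 2. No spot of a human miRNA was saturated.

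On the scaled log2 scale, hsa-miR-374a-5p was at -5.61, -5.62 and -5.11 in substate 1 of experiments 1 to 3 and at -4.38, -3.76 and -4.29 in substate 2. The means were -5.45 ± 0.29 and -4.14 ± 0.34 (SD, n = 3). The lowest array of substate 2 lay above the highest of substate 1, and the gap was narrowest between the arrays of experiment 3.

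hsa-miR-374b-5p was at -4.79, -5.70 and -4.62 in substate 1 and at -3.97, -3.40 and -3.84 in substate 2, with means of -5.04 ± 0.58 and -3.73 ± 0.30. Here the low value of experiment 2 in substate 1 set much of the spread. The substates did not overlap.

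hsa-miR-421 was at -5.74, -6.12 and -6.11 in substate 1 and at -4.40, -3.58 and -4.39 in substate 2, with means of -5.99 ± 0.21 and -4.12 ± 0.47. The arrays of substate 1 were close together, and experiment 2 stood above the rest in substate 2. On the same scale hsa-miR-374c-5p was at the floor on all 3 arrays of substate 1, although 1 of them detected it, and within 0.06 of the floor in substate 2.

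**Figure D1:**
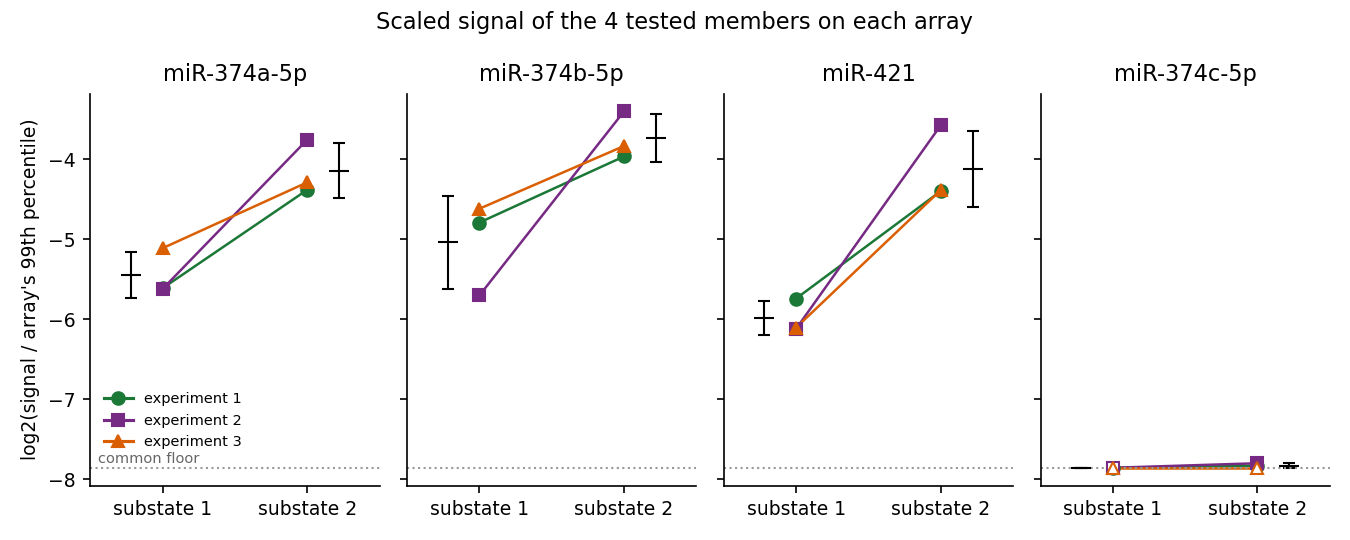
Scaled signal (log2 of the signal over the array's 99th percentile) of the 4 tested members in substate 1 and substate 2, with a line joining the arrays of an experiment, open marks for undetected values, the mean ± SD of the 3 arrays beside the points and the common floor dotted. Substate 2 lies above substate 1 without overlap for miR-374a-5p, miR-374b-5p and miR-421, and miR-374c-5p sits at the floor.

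The log2 difference, substate 2 minus substate 1, was 1.23, 1.87 and 0.82 for hsa-miR-374a-5p in experiments 1 to 3, with a mean of 1.31 ± 0.53 (SD over experiments, n = 3), a ratio of 2.47. It was 0.83, 2.30 and 0.78 for hsa-miR-374b-5p, with a mean of 1.30 ± 0.86 and a ratio of 2.47. It was 1.34, 2.54 and 1.72 for hsa-miR-421, with a mean of 1.87 ± 0.61 and a ratio of 3.65. Experiment 2 gave the largest difference of each of the 3. hsa-miR-374c-5p had a difference of 0.03 ± 0.03, which is set by the floor and has no reading as a level. Equal amounts of RNA were labelled for both substates of an experiment, so that the arrays do not measure the number of vesicles. More vesicles that carry a given miRNA and more copies of it per vesicle cannot be told apart.

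To set these values in their background, all miRNAs detected on at least 3 of the 6 arrays, 474 of 2549, were fitted with limma's moderated test with experiment as a block. Of the members, 4 passed this filter. A call asked for a Benjamini-Hochberg adjusted p under 0.05 over all 474 and at least a 2-fold difference. limma called 0 of the 4 members and 0 of the 474, in either direction (0% higher and 0% lower), with a smallest adjusted p of 0.139 over the whole table. Before adjustment, 109 miRNAs had a p under 0.05 in limma, 46 of them higher in substate 2. The paired test named in the methods was run here on the scaled values, with Benjamini-Hochberg adjustment over all 474. It also left 0 calls, and 57 miRNAs had a p under 0.05 in it before adjustment. The paper instead tested only miRNAs that showed a 2-fold difference, on its own processed values. The counts given here therefore do not repeat its procedure.

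Of the 4 tested members, 3 were at least 2-fold higher in substate 2, against 23 of the 474 tested miRNAs (4.85%). In all 3 experiments, 3 of the 4 were higher, against 100 of the 474 (21.1%). The arrays of substate 2 all lay above those of substate 1 for 3 of the 4, against 56 of the 474 (11.8%). Nothing is read from these counts, since the members were put forward on the same contrast. Among the 289 miRNAs detected on all 6 arrays, 17 were higher in substate 2 by 2-fold or more, and 7 were lower by as much. Of the same 289, 87 were higher in all 3 experiments. By their mean difference, hsa-miR-421 stood 2nd, hsa-miR-374a-5p 7th and hsa-miR-374b-5p 8th from the top of those 289.

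**Figure D2:**
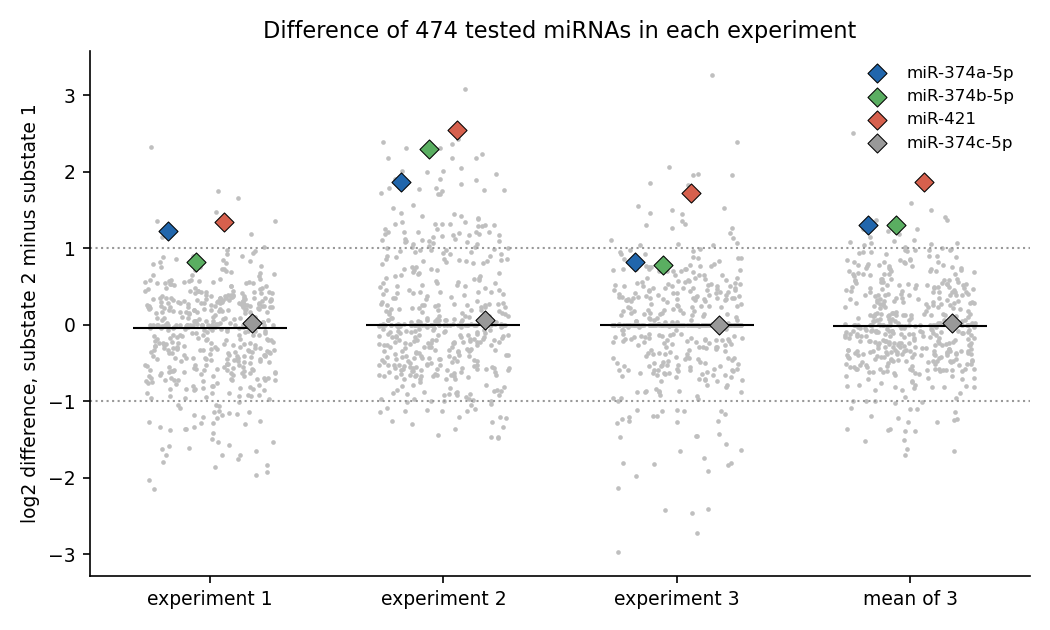
Log2 difference, substate 2 minus substate 1, of the 474 tested miRNAs in each experiment and as the mean of 3 experiments, with miRNAs in grey, the median as a black bar, the 4 tested members as diamonds and 2-fold dotted. miR-374a-5p, miR-374b-5p and miR-421 lie above the median in each experiment and furthest above it in experiment 2.

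The size of the difference depended on the scaling. With signals divided by the labelled amount of RNA alone, the median of all tested miRNAs moved to -0.51, and the members' differences were 0.75 for hsa-miR-374a-5p, 0.74 for hsa-miR-374b-5p and 1.31 for hsa-miR-421, so that 1 of the 4 remained at least 2-fold higher. Relative to that median they stood at 1.26, 1.25 and 1.82, close to the 1.32, 1.32 and 1.88 found relative to the median after percentile scaling. Division by the labelled amount alone keeps the spot-size setting of substate 1 in experiment 1. At the same spot size the median was -0.38, and the members' differences were 0.88, 0.88 and 1.44. With normexp background correction the median was 0.32, and relative to it the members stood at only 0.42, 0.47 and 0.56. Without experiment 2, the differences were 1.03, 0.81 and 1.53, and hsa-miR-374b-5p was no longer 2-fold higher.

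Each well measured member had a pair of probes of 10 spots. Both probes of hsa-miR-374a-5p gave scaled log2 differences that were nearly the same: 1.23 and 1.23 in experiment 1, 1.85 and 1.88 in experiment 2, and 0.73 and 0.90 in experiment 3. Those of hsa-miR-374b-5p were 0.89 and 0.76, 2.29 and 2.31, and 0.76 and 0.81. All 6 arrays had every spot of these 4 probes well above background.

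hsa-miR-421 differed in this. Its first probe had every spot well above background on all arrays, with scaled differences of 1.34, 2.36 and 1.72, and its other probe passed 3 times its error on 3 arrays only, both of experiment 1 and substate 2 of experiment 2. In experiment 1, where both arrays measured it, the other probe gave 1.38. Because the total signal adds up only the probes that pass, the total of experiment 2 held an additional probe in substate 2. The mean over experiments was 1.81 ± 0.52 with the first probe alone, beside 1.87 with the total.

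**Figure D3:**
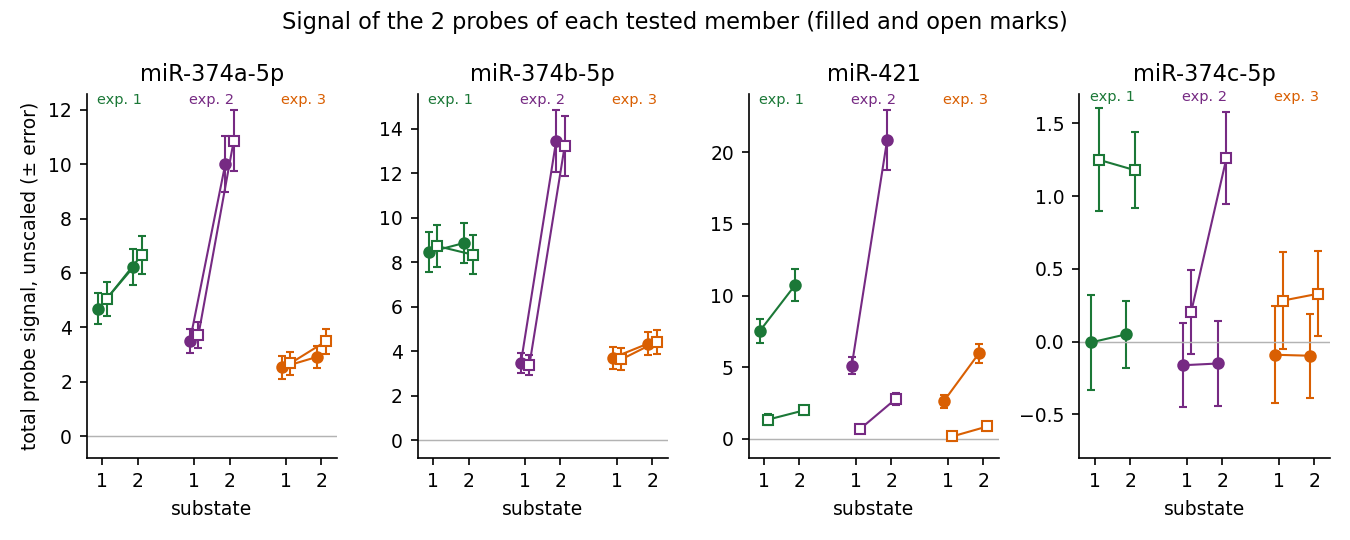
Unscaled total signal of each of the 2 probes (filled circles and open squares) of the 4 tested members by substate and experiment, with bars of 1 error of the scanner software. Both probes of miR-374a-5p are higher in substate 2 in each experiment, and both of miR-374b-5p in experiments 2 and 3. In experiment 1 the probes of miR-374b-5p move in opposite directions by less than their errors. The first probe of miR-374c-5p stays around 0 on all arrays.

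The members detected on some arrays were read from few probes. In hsa-miR-374c-5p, 1 probe stayed under its own error on all 6 arrays, and the other gave 1.25 ± 0.35 and 1.18 ± 0.26 in experiment 1, 0.202 ± 0.29 and 1.26 ± 0.32 in experiment 2, and 0.282 ± 0.34 and 0.329 ± 0.29 in experiment 3, for substate 1 and substate 2. The 3 arrays on which it passed were the 3 with the highest total signal of hsa-miR-374b-5p (17.2, 17.2 and 26.7, against 6.81 to 8.76 on the rest). The mature hsa-miR-374c-5p shares 20 bases with hsa-miR-374b-5p. Whether that probe also binds hsa-miR-374b-5p was not tested, and hsa-miR-374c-5p is uncertain as a separate product. For hsa-miR-545-3p, 1 of 4 probes passed on 1 array, at 0.805 ± 0.17, which lies under the common floor. Neither has a difference that can be read as a change of level.

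Within an array, scaling plays no part in the ratio of a pair of members, and the change of such a ratio shows unequal change. The ratio of hsa-miR-421 to hsa-miR-374b-5p, whose genes are 85 bases apart, was higher in substate 2 in each experiment, by 0.52, 0.24 and 0.93 on the log2 scale (mean 0.56 ± 0.35). With the first probe of hsa-miR-421 alone, chosen after the data were seen, the change was 0.51, 0.06 and 0.93 (0.50 ± 0.44), so that little of it remained in experiment 2. That of hsa-miR-421 to hsa-miR-374a-5p was higher by 0.11, 0.68 and 0.90 (0.56 ± 0.40), or by 0.11, 0.50 and 0.90 (0.50 ± 0.39) with that probe. The ratio of hsa-miR-374a-5p to hsa-miR-374b-5p, which come from different ends of the region, changed by 0.40, -0.44 and 0.04 (0.00 ± 0.42), without a common direction. The spread over 3 experiments was wide for each ratio, and whether neighbours move more alike than products of distant genes was not tested.

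Over the 6 arrays, the members were set beside each tested miRNA outside the group by Pearson's correlation of scaled log2 signal, as a description only, since the 6 points are 3 pairs that share experiment and substate. Closest to hsa-miR-374a-5p were hsa-miR-551b-3p (r = 0.995, Spearman's rho = 0.89), hsa-miR-106b-5p (r = 0.98, rho = 0.94) and hsa-miR-363-3p (r = 0.98, rho = 0.94). Closest to hsa-miR-374b-5p were hsa-miR-135b-5p (r = 0.99, rho = 1), hsa-miR-30c-5p (r = 0.96, rho = 0.94) and hsa-miR-106b-5p (r = 0.96, rho = 0.94). Closest to hsa-miR-421 were hsa-miR-130b-3p (r = 0.99, rho = 0.94), hsa-miR-103a-3p (r = 0.98, rho = 0.94) and hsa-miR-107 (r = 0.98, rho = 0.94), of which the latter pair shared 21 bases and may share probe signal.

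Between the members themselves, r was 0.94 (rho = 1) for hsa-miR-374a-5p with hsa-miR-374b-5p, 0.95 (rho = 0.94) for hsa-miR-374a-5p with hsa-miR-421 and 0.91 (rho = 0.94) for hsa-miR-374b-5p with hsa-miR-421. Whether hsa-miR-374a-5p and hsa-miR-374b-5p share probe signal was not checked, so that they may not be separate measurements. By r the nearest miRNAs outside the group stood closer to each member, and by rho they did not. Those miRNAs are the closest of all tested, so that the comparison is uneven. The nearest of each is shown, to set its seed beside that of the member. hsa-miR-135b-5p and hsa-miR-130b-3p did not share the seed of the member they followed, and for hsa-miR-551b-3p this was not compared, since hsa-miR-374a-5p had no reference sequence.
hsa-miR-551b-3p: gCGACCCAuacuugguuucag
hsa-miR-135b-5p: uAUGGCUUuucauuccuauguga
hsa-miR-130b-3p: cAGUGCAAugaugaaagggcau

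Their log2 differences were 1.36 ± 0.61 for hsa-miR-551b-3p, 1.25 ± 0.69 for hsa-miR-135b-5p and 1.35 ± 0.45 for hsa-miR-130b-3p (SD over experiments, n = 3), and each was largest in experiment 2 (1.91, 2.05 and 1.79). Since these miRNAs were picked for their likeness to the members, that follows from the choice.

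The members are rich in A and U. The GC content of the mature sequence was 31.8% for hsa-miR-374b-5p, 36.4% for hsa-miR-374c-5p and 43.5% for hsa-miR-421, against a median of 59.1% over the 407 tested miRNAs with a reference sequence (85.9% of those tested). hsa-miR-374a-3p and hsa-miR-545-5p, both undetected, had 22.7%, under the 30.4% that was the lowest among those 407.

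The substate difference was also set beside the GC content of other miRNAs. The tested miRNAs were put into 4 classes by GC content, with the members left out. The class with the lowest GC content (30.4% to 47.8%, n = 110) had a median log2 difference of 0.04, and 11 of them (10%) were at least 2-fold higher and 7 lower by as much. The class with the highest GC content (69.6% to 95.2%, n = 102) had a median of -0.14, and 1 (0.98%) was at least 2-fold higher and 3 were lower by as much. The medians of the classes between them were -0.08 and -0.01, so that the order was not a steady one. The medians of the low class were -0.03, 0.58 and 0 in experiments 1 to 3, and those of the high class -0.06, -0.30 and 0. The gap between these classes thus lay mainly in experiment 2, and without that experiment the medians were -0.0471 and -0.00419.

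Many of these miRNAs sit at the floor, where no difference can be seen. Among tested miRNAs whose mean level lay above the median, the low class (n = 51) had medians of 0.17, 1.08 and 0.27 in the 3 experiments and the high class (n = 72) had -0.18, -0.35 and -0.06. From the lowest to the highest class, the share higher in substate 2 in all 3 experiments was 51.0%, 36.6%, 16.2% and 11.1%. Counted over experiments 1 and 3 alone, a choice made after the data were seen, it was 52.9%, 46.3%, 27.0% and 36.1%. The class medians of the mean difference were 0.48, -0.09, -0.30 and -0.23. The shares in all 3 experiments fell from class to class, and the medians and the shares without experiment 2 had no steady order. In experiment 3 the median of the next class (0.32) was above that of the lowest. Over all tested miRNAs with a sequence outside the group, the lowest class did not have the highest median without experiment 2. The part of base composition in the members' difference was not tested.

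**Figure D4:**
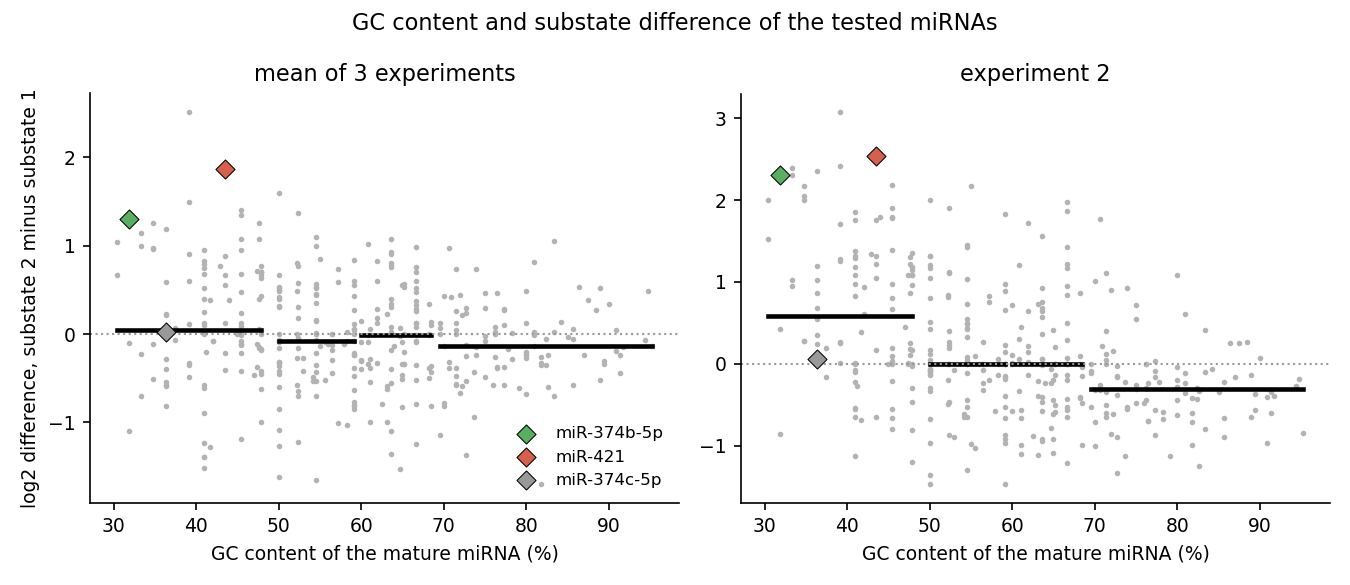
GC content of the mature miRNA against the log2 difference, substate 2 minus substate 1, as the mean of 3 experiments (left) and in experiment 2 (right), for the tested miRNAs with a reference sequence. Black bars are the medians of the 4 classes by GC content with the members left out, at 0.04 in the lowest and -0.14 in the highest class on the left and at 0.58 and -0.30 on the right, and diamonds are the members.

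Other miRNAs of the X chromosome gave a mixed picture. They were placed on the chromosome by their reference sequence, which 407 of the 474 tested miRNAs had. X-linked miRNAs without one are missing from all counts given here, as are those with a further gene on another chromosome. Of 138 placed there outside the group, 32 were detected on at least 1 array, 28 were tested and 15 were detected on all 6 arrays. limma called 0 of the 28. In all 3 experiments, 7 of these 28 with a reference sequence (25%) were higher in substate 2 and 4 (14.3%) lower. Over all tested miRNAs, with or without a sequence, the counts were 100 (21.1%) and 111 (23.4%). The median log2 difference of these 28 was 0, beside -0.01 over all tested. Among the 28, 1 miRNA was higher by 2-fold or more and 1 lower by as much. The median of the 28 depended on miRNAs at the floor. It was 0.12 with a lower floor (-0.08 over all tested) and 0.29 with signals under 1 set to 1 before scaling (0.06 over all tested). For the 15 of them detected on all 6 arrays it was 0.29, beside -0.05 for all 289.

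Of the 10 taken by mean level among those on all 6 arrays, hsa-miR-361-5p had the largest difference, 1.40 ± 0.42, with 0.96, 1.78 and 1.46 in experiments 1 to 3. hsa-miR-363-3p, hsa-miR-18b-5p and hsa-miR-20b-5p, which come from a single cluster related to miR-17 to miR-92, had 0.95 ± 0.37, 0.88 ± 0.80 and 0.77 ± 0.50. hsa-miR-221-3p had 0.70 ± 0.45 and hsa-miR-188-5p 0.29 ± 0.27. hsa-miR-718 and hsa-miR-513a-5p changed sign between experiments, with means of 0.05 ± 0.41 and -0.16 ± 0.34. hsa-miR-6086 and hsa-miR-1587 were lower in substate 2 in each experiment, at -0.51 ± 0.32 and -0.78 ± 0.08. The latter pair had a GC content of 65.0% and 70.0%, and hsa-miR-361-5p had 45.5%. It was 40.9%, 43.5%, 47.8% and 47.8% for hsa-miR-363-3p, hsa-miR-18b-5p, hsa-miR-20b-5p and hsa-miR-221-3p. For hsa-miR-188-5p, hsa-miR-718 and hsa-miR-513a-5p it was 61.9%, 85.7% and 50.0%.

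**Figure D5:**
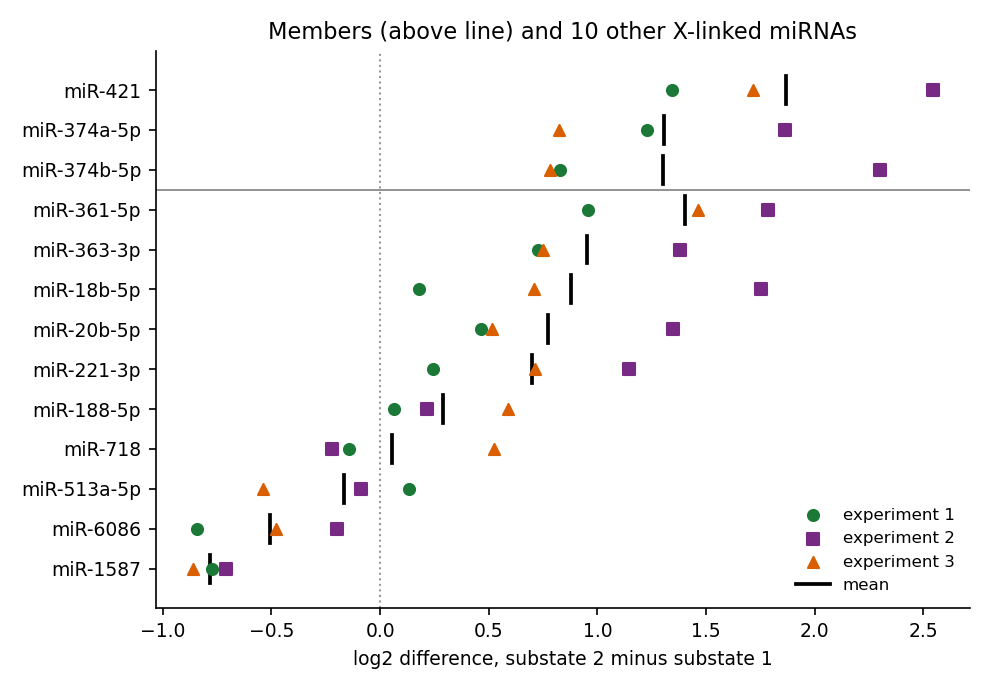
Log2 difference, substate 2 minus substate 1, in each of 3 experiments and as their mean (black bar), for 3 members (above the line) and 10 other X-linked miRNAs with a reference sequence detected on all 6 arrays. miR-361-5p, at a mean of 1.40, lies among the members, and miR-1587, at -0.78, is lower in substate 2 in each experiment.

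The identity of the samples was checked by marker miRNAs. Of 9 miRNAs of human pluripotent stem cells, 8 were detected on at least 1 array and 5 on all 6. Those 5 were hsa-miR-302a-3p, hsa-miR-302b-3p, hsa-miR-302c-3p, hsa-miR-302d-3p and hsa-miR-367-3p, while hsa-miR-372-3p was not detected on any array. The summed unscaled signal of the list was 5594 and 2189 in experiment 1, 3034 and 3409 in experiment 2, and 2512 and 1252 in experiment 3, for substate 1 and substate 2. Sums of this and the following lists keep the spot-size setting described above, which raised them in substate 1 of experiment 1. After scaling, the differences in experiments 1 to 3 were -0.54, 0.25 and -0.78 for hsa-miR-302a-3p and -0.37, 1.02 and -0.0016 for hsa-miR-367-3p. The mean differences of hsa-miR-302a-3p, hsa-miR-302b-3p, hsa-miR-302c-3p and hsa-miR-302d-3p were -0.36, -0.51, -0.22 and -0.33, and that of hsa-miR-367-3p was 0.21. Each of these hsa-miR-302 miRNAs was lower in substate 2 in experiments 1 and 3 and higher in experiment 2. None of 8 let-7 miRNAs, which mark differentiated cells, was detected on any array, nor was hsa-miR-122-5p of liver.

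Of 4 neural miRNAs, hsa-miR-124-3p and hsa-miR-128-3p were detected on all 6 arrays, and both hsa-miR-9 arms on none. The summed signal of the neural list, led by hsa-miR-124-3p, was 15.0 and 9.39 in experiment 1, 10.4 and 17.6 in experiment 2, and 5.27 and 4.46 in experiment 3. Before scaling it was higher in substate 2 in experiment 2 alone. After scaling, hsa-miR-124-3p was higher in all 3 experiments, by 0.38, 0.99 and 0.37, and hsa-miR-128-3p changed by -0.13, 1.22 and 0.09. Both had their highest difference in experiment 2, as did the 5 pluripotency miRNAs detected on all arrays. The part of neural cells in the members' difference was not tested. Of 5 muscle and mesenchyme miRNAs 2 were detected on some arrays, with a summed signal of at most 1.72, and of 4 blood miRNAs hsa-miR-486-5p alone was detected, on 3 arrays, with at most 3.62.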

How the data were processed

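Per the file headers, spot intensities were read by Agilent Feature Extraction (12.0.3.2 for experiment 1, 11.5.1.1 for experiments 2 and 3), with no normalization between arrays. The authors deposited log2 values made in GeneSpring GX with 99th percentile scaling, used here as an alternative. Detection marks and other flags were deposited with the intensities. The members and lists were chosen with earlier results of these data known. Total signals were divided by the array's 99th percentile over 2549 human miRNAs, raised to a common floor and put on the log2 scale. A fit of the 474 miRNAs seen on 3 or more arrays used limma 3.58.1 (lmFit, eBayes, two-sided) in R 4.3.3, tested on simulated data, with experiment as a block as in the methods' paired test. Named beside the members were miRNAs with a member's seed and the 3 most correlated miRNAs per member. At most 10 miRNAs with a reference sequence and with genes on the X chromosome alone, on all 6 arrays, were named by mean level. Of the array's miRNAs, 2248 had a sequence in RefSeq GRCh38.p14. Experiment 1 was on slide 1 and experiments 2 and 3 on slide 2, so that the block also holds the slide. Correlations between arrays lay between 0.936 and 0.981, and precision is limited by the number of arrays. Alternatives changed the floor, scaling, signal, background correction, filter, fit and experiments.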

Additional observations from a re-analysis of the deposited data

How the results depend on the processing

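The differences of hsa-miR-374a-5p, hsa-miR-374b-5p and hsa-miR-421 were above 0 under all 15 other settings of signal, floor, scaling, filter and experiments, between 0.74 and 1.55, 0.74 and 1.56, and 0.88 and 2.13. hsa-miR-374c-5p ranged from 0 (quantile normalization) to 1.65 (deposited values). Against 3 members at least 2-fold higher, there were 4 with the median spot signal and with the deposited values (hsa-miR-374c-5p in addition), 1 with the labelled amount alone, 1 with that amount at the same spot size (chosen after seeing the data) and 0 with normexp, which changed the spot signal (raw medians), the background correction and the offset together. Over all tested miRNAs, 23 higher and 22 lower by 2-fold became 4 and 97 with the labelled amount alone. At the same spot size that setting gave 6 and 68. Over all settings, the number higher lay between 1 (normexp) and 68 (deposited values). Against 0 limma calls, there were 8 (7 higher, 1 of them the member hsa-miR-421) with the median spot signal, 7 (5 higher, 1 of them hsa-miR-421) among miRNAs detected on all 6 arrays, where fewer were tested, and 3 with normexp. The cause was not tested. Calls of a member rest on the values that chose it and are no test of it. Without each experiment in turn, limma called 0 miRNAs and 0 members, 2 to 3 members were at least 2-fold higher, beside 18 to 43 of all tested, and 4 were higher at all, of which hsa-miR-374c-5p lay within 0.05 of 0. Deviations of arrays with the same experiment number correlated at 0.674, 0.0307 and 0.517, so that the numbers alone do not settle the pairing, and with no replicate block limma called 1 miRNA, no member. Scaling to the 75th percentile of all human miRNAs was not run, because that percentile was the value of undetected miRNAs (0.1) on every array. For 5 of the 8 members, few or no probes passed 3 times their error, which limits what can be said of them.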
